A study of Mus musculus with 2 samples.

Results

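Collagens and laminins are among the main structural proteins of the extracellular matrix. Their genes were read on 2 one-colour Agilent arrays of total RNA from 46C, a mouse embryonic stem (ES) cell line. The members were taken by symbol: every gene with probes named Col plus a type and chain number, or Lama, Lamb or Lamc plus a chain number. These were 55 of the 36992 genes on the array, with 121 of its 56605 probes: 11 fibrillar collagens, 8 basement membrane collagens, 25 other collagens and 11 laminins. One array received RNA of cells with a hairpin that targets LincU, a long noncoding RNA (shLincU). The other received RNA of cells labelled with a control hairpin (shCtrl), although the title of that sample calls it WT. All cells were grown with serum and LIF, a cytokine that holds ES cells undifferentiated, on feeder cells that were removed before RNA was taken. The question the design poses is how the stem cells' transcripts differ once LincU is knocked down; the knockdown itself was not checked here.

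With 1 array per group there was no replicate and no test between groups, so the values describe these 2 arrays and carry no p-value. A level is the log2 processed signal minus the 75th percentile of all non-control probes of the same array, and a difference is the shLincU level minus the shCtrl level. A gene counts as measured where at least 1 probe stood well above background on both arrays, by the scanner software's flag. The shLincU array was dimmer, with its 75th percentile at 420 intensity units and 57.9% of probes well above background, against 626 units and 60.9% on the shCtrl array. No spot was saturated. Over probes spotted 10 times, the median SD between spots was 0.040 log2 for shLincU and 0.038 for shCtrl. Over 7144 genes with several measured probes, the median SD between the probes of a gene was 0.18, and the median error that the scanner software assigned to a difference was 0.20. Levels of different genes or probes are not set against each other as amounts of RNA, since probes bind with different strength. The summed signals given for some marker lists do add levels of different genes, so the brightest probes weigh most in them. Bulk RNA also does not separate fewer cells of a type from less RNA per cell.

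Collagen chains wind into trimeric helices in which glycine is the third residue of each repeat. Fibrillar types I, II, III, V and XI pack into the fibres of connective tissue, while type IV forms the sheet-like network of basement membranes. Laminins are cross-shaped trimers of an α, a β and a γ chain. They are the first basement membrane component laid down in the mouse embryo, and ES cells and primitive endoderm make laminin chains and type IV collagen.

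The glycine repeat is visible in the array's own probes. These 60-base probes are shown because their letters carry the repeat that defines the family, with each glycine codon (GG and any base) of the reading frame in capitals; locations are those the array gives, in build mm9.
Col11a2 (chr17:34189287-34189453, plus strand): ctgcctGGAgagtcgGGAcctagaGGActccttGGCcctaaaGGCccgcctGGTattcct
Col5a3 (chr9:20590066-20590795, minus strand): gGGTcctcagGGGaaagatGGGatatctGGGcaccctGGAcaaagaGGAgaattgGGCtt
Col15a1 (chr4:47283786-47283845, plus strand): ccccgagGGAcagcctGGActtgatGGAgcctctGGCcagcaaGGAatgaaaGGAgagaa
Col6a3 (chr1:92689602-92690594, minus strand): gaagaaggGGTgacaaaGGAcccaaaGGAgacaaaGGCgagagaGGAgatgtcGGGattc
Such a codon stood at each repeat position along the whole probe in 4 of the 91 collagen probes, against 5 of the 56484 other probes of that length. None of these 4 probes was well above background on both arrays. The differences below therefore come from probes outside the fully repetitive stretches, and only the bound given for Col11a2 comes from a probe shown here.

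Of the 55 genes, 33 were measured on both arrays, against 56.8% of all genes on the array. Another 8 passed this flag in shCtrl only and 1, Col24a1, in shLincU only, where the shares over all genes were 4.53% and 1.54%. The remaining 13 were well above background on neither, although with the scanner's less strict positive and significant flag 49 of the 55 genes were read on both arrays. Among the 33 measured genes 14 lay above 0 and 19 below, and 46.9% of all measured genes lay below 0. Their median difference was -0.010, against 0.020 over the 21018 measured genes, whose interquartile range was -0.17 to 0.20. No member was at least 2-fold higher in shLincU and 1, Col1a2, was at least 2-fold lower, where 1.14% and 1.53% of all genes were (2.67% together). At a size of 1.5-fold, 2 members were higher and 6 lower, together 8 of 33, against 9.62% of all genes (4.78% higher and 4.84% lower). All directions are relative to the bulk of genes: scaling to the E1A spike-in controls instead moved the median of all genes by -0.89, and no member then had a difference above 0.

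**Figure D1:**
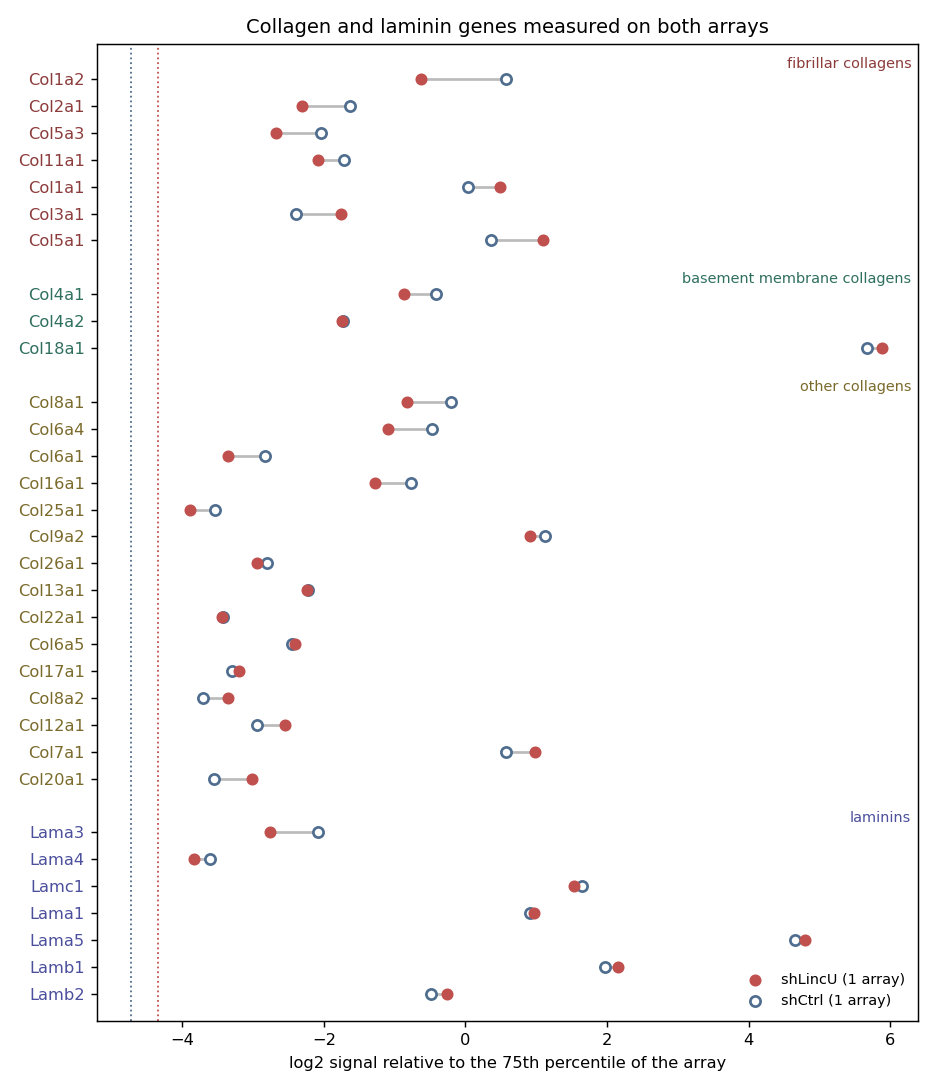
Each line is a measured gene named in the text, grouped by class, with its log2 level relative to the array's 75th percentile on the horizontal axis. Filled points are the shLincU array, open points the shCtrl array, and dotted lines the lowest level called well above background on each array (-4.34 for shLincU and -4.72 for shCtrl). Most pairs of points lie close together, and the longest line belongs to Col1a2.

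The fibrillar collagens held both the widest gap of the family and differences in opposite directions. Of 11 genes 7 were measured, and 5 of those were at least 1.5-fold apart: 2 higher and 3 lower in shLincU. With normexp background correction all 5 kept their direction and only Col1a2 and Col5a1 were still 1.5-fold apart. Col1a2, the α2 chain of type I collagen, had a level of -0.62 in shLincU and 0.58 in shCtrl. Its processed intensities were 273 in shLincU and 935 in shCtrl. The difference was -1.20 with a scanner error of 0.21, or 0.435 of the shCtrl level, and it rests on 1 probe at chr6:4490619-4490678 (mm9); the other 3 Col1a2 probes were well above background on neither array. The α1 chain of the same trimer, Col1a1, did not share this direction. It stood at 0.49 in shLincU and 0.040 in shCtrl, a difference of 0.45 over 3 probes. The chains of type I collagen thus lay 1.65 log2 units apart in their differences.

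The 3 Col1a1 probes did not give 1 value. A pair of them overlap, at chr11:94813075-94813134 and chr11:94813115-94813174 (mm9), and were spotted 10 times each, with SDs between spots of 0.064 to 0.085. They differed by 0.23 and 0.16 between the arrays. The third, farther toward the 3′ end at chr11:94814188-94814247, was spotted once, at 0.61 in shLincU and -0.35 in shCtrl, a difference of 0.96. With the brightest probe alone, the Col1a1 difference was 0.23, so the size of its difference depends on the probe, and the direction was the same in all 3. Which exon or UTR a probe lies in was not assigned here.

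The promoter of Col1a2 is shown because this gene was the only member past 2-fold. The sequence is RefSeq's for GRCm38.p6, 250 bases before to 50 after the start. Capitals mark CCAAT, read on either strand.
Col1a2 (chr6:4505368-4505667, plus strand): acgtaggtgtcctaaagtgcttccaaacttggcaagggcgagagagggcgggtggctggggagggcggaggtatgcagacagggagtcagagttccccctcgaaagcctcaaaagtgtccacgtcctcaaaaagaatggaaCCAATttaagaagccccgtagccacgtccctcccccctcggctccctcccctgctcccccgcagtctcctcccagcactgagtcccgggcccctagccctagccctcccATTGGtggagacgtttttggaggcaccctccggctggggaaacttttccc
Searched on both strands, the window holds 2 matches to CCAAT, 2 matches to GGGCGG and none to TATAAA. Over the 32851 promoter windows of the table, the share with at least 1 match was 37.4% for CCAAT, 35.7% for GGGCGG and 13.6% for TATAAA. Of the 55 genes 40 have a window there, 44 windows in all. Among these, 14 windows hold the letters CCAAT, 26 windows hold the letters GGGCGG, and 5 windows hold the letters TATAAA. These matches describe letters and say nothing of which factor binds.

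The other fibrillar chains also split. Col5a1, the α1 chain of type V collagen that starts fibre formation, stood at 1.096 in shLincU and 0.36 in shCtrl, a difference of 0.73. Col5a3, another type V chain, was at -2.68 in shLincU and -2.04 in shCtrl, a difference of -0.64. These type V chains therefore lay 1.37 apart, again in opposite directions. Col3a1, whose product forms the thin fibres of soft tissue with type I, was at -1.75 in shLincU and -2.39 in shCtrl, a difference of 0.64. Col2a1, the cartilage collagen, was at -2.31 in shLincU and -1.64 in shCtrl, a difference of -0.67. Col11a1, which associates with type II in cartilage fibres, was at -2.08 in shLincU and -1.72 in shCtrl, a difference of -0.37 that stayed under 1.5-fold. Scanner errors of these single-probe differences were 0.20 to 0.23.

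The remaining fibrillar genes were dim. Col24a1 was well above background in shLincU only and at least 1.41-fold higher there; over all genes seen in shLincU only, 46.6% had a bound of 2-fold or more, and over those seen in shCtrl only 15.9% had. Col11a2 was well above background in shCtrl only and at least 1.05-fold lower in shLincU, a log2 bound of 0.075 beside a scanner error of 0.45. Bounds here and below leave the scanner error out, so a small one does not settle a direction. Col5a2, the usual partner of Col5a1, was well above background in shCtrl only, at a level too low to give a fold, and Col27a1 was well above background on neither array. The median of the measured fibrillar genes was -0.37, but its sign is not stable: it was 0.038 with spots of the upper rows alone and 0.19 with dim probes included. Under E1A scaling Col3a1 stood at -0.25 and Col5a1 at -0.16, so their place above shCtrl holds only relative to other genes.

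**Figure D2:**
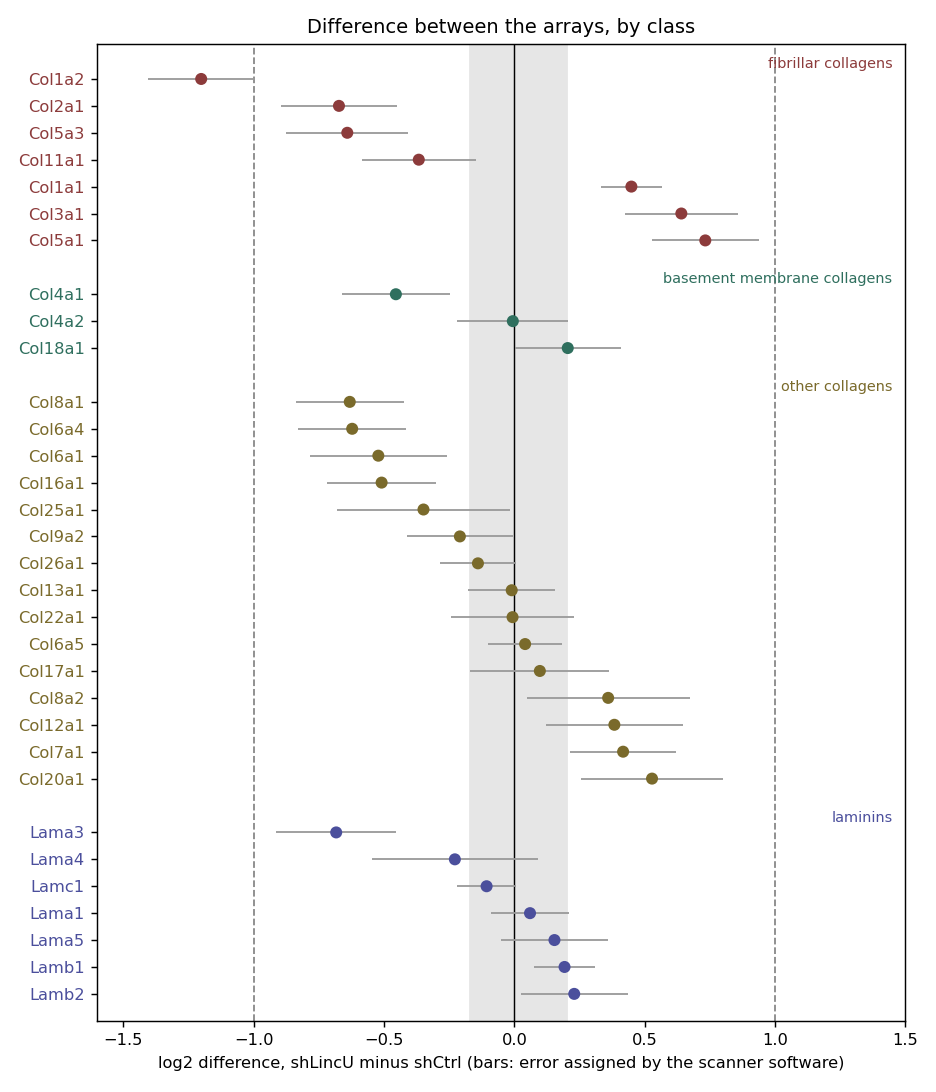
Each point is a measured gene named in the text and its log2 difference, shLincU minus shCtrl, with bars for the scanner software's error; dashed lines mark 2-fold and the grey band the interquartile range of all genes (-0.17 to 0.20). Fibrillar collagens stand on both sides of the band, while Col4a2, Lama1, Lama5, Lamb1 and Lamc1 lie at or close to it.

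Of the 8 basement membrane collagens 3 were measured, and none of these 3 was 1.5-fold apart. Col4a1 and Col4a2 encode the α1 and α2 chains that form the common type IV trimer. Col4a1 was at -0.87 in shLincU and -0.41 in shCtrl, a difference of -0.45 with an error of 0.21. Col4a2 was at -1.74 in shLincU and -1.73 in shCtrl, a difference of -0.0061 with an error of 0.21. The gap between the pair was 0.45, each read by 1 probe. Col18a1, whose product carries heparan sulphate and the endostatin fragment, was at 5.88 in shLincU and 5.68 in shCtrl, a difference of 0.20. Of the minor type IV chains, Col4a5 and Col4a6 were well above background in shCtrl only, at least 1.75-fold and 1.09-fold lower in shLincU. Col4a3, Col4a4 and Col15a1 were well above background on neither array. The class median was -0.0061.

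Col4a1 and Col4a2 lie head to head and are read in opposite directions from a common stretch of DNA, which is why both windows are shown. In the RefSeq annotation of GRCm38.p6 their starts are 21 bases apart. Capitals mark the 78 bases that the windows share, each printed on its gene's own strand.
Col4a1 (chr8:11312777-11313076, minus strand): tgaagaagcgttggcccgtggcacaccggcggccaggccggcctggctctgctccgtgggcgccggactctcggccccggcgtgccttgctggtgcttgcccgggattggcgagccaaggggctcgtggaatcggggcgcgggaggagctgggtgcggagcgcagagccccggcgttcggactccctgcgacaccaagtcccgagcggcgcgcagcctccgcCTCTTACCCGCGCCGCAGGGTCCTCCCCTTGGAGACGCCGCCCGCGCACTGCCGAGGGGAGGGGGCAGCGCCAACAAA
Col4a2 (chr8:11312555-11312854, plus strand): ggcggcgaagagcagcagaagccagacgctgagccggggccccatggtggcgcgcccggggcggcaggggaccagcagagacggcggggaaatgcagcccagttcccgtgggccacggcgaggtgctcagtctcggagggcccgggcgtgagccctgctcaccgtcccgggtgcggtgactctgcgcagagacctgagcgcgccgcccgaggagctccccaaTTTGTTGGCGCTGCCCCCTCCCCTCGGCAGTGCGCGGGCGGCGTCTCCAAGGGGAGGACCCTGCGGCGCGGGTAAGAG
The windows are 74.0% and 73.7% G and C, against a median of 52.7% over all windows. Neither holds TATAAA. Each holds 1 match to CCAAT, and GGGCGG matches once in the Col4a1 window and 3 times in that of Col4a2. With a shared start region, the transcripts differed by -0.45 and -0.0061 between the arrays, both within 1.5-fold.

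Among the other collagens 15 of 25 genes were measured, 6 above 0 and 9 below, with a median of -0.010. With normexp background correction that median was 0.18. None was 2-fold apart, and the 2 past 1.5-fold were both lower in shLincU. Col8a1, a short-chain collagen of vessel walls and Descemet's membrane, was at -0.83 in shLincU and -0.20 in shCtrl, a difference of -0.63. Col6a4, a type VI chain, was at -1.09 in shLincU and -0.47 in shCtrl, a difference of -0.62. Both kept their direction under every background, scaling and filter setting tried, but were under 1.5-fold with normexp. The type VI chains, which build the beaded filaments around cells, were read unevenly. Col6a1 was at -3.36 in shLincU and -2.84 in shCtrl, a difference of -0.52 with an error of 0.26. Col6a5 differed by 0.041 over 3 probes. Col6a2 was well above background in shCtrl only, at least 1.18-fold lower in shLincU, and Col6a3 and Col6a6 were well above background on neither array.

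The smallest differences of the class were those of Col22a1, a collagen of tissue junctions, at -0.0071, of Col13a1, a transmembrane collagen, at -0.010, and of Col6a5. The Col22a1 value is a mean of 2 probes that disagreed, at 0.45 and -0.47. Col13a1's 2 probes stood at 0.16 and -0.18. By contrast, the 3 probes of Col26a1 lay within 0.078 of each other around a difference of -0.14. With normexp background correction Col26a1 stood at 0.15, so the agreement of its probes does not settle the direction. The highest value of the class was that of Col20a1, 0.53 with an error of 0.27, followed by Col7a1, which forms the anchoring fibrils under epithelia, at 0.42. Col16a1 differed by -0.51, Col25a1 by -0.35, Col9a2 by -0.21, Col17a1 by 0.098, Col8a2 by 0.36 and Col12a1 by 0.38, all under 1.5-fold. The other probe of Col8a2 and that of Col17a1 were well above background in shCtrl only, at least 1.17-fold and 1.299-fold lower in shLincU. With dim probes included, Col8a2 stood at -1.08 and Col17a1 at -0.27, the opposite direction. Col25a1, at 0.70, and Col16a1, at 0.080, also changed direction in that setting. Col25a1 was 0.18 with normexp, and Col12a1 was -0.016 with the positive and significant flag. Col9a3 was at least 1.81-fold lower in shLincU, where it was not well above background. Another 6 genes of the class (Col10a1, Col14a1, Col19a1, Col23a1, Col28a1 and Col9a1) gave no signal well above background.

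**Figure D3:**
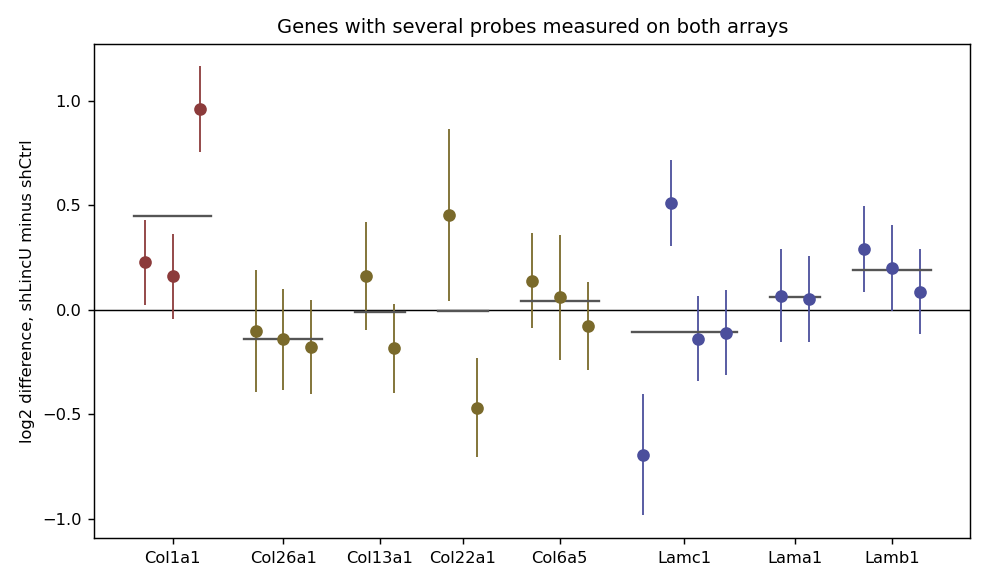
Each point is 1 probe measured on both arrays, with its log2 difference (shLincU minus shCtrl) and the scanner software's error, for the genes with several such probes, in the order of the positions the array gives; horizontal lines are gene means. Probes of Lama1, Lamb1 and Col26a1 lie together, whereas 1 Col1a1 probe, at 0.96, and the first 2 Lamc1 probes, at -0.69 and 0.51, stand apart. The 2 probes of Col22a1, at 0.45 and -0.47, also stand apart from each other.

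The laminin chains of the embryonic trimers were under 1.5-fold apart as means over the probes well above background. Laminin-111 and laminin-511 are built from an α1 or α5 chain with β1 and γ1, and they are the forms made by pluripotent and primitive endoderm cells. Lama1 was at 0.97 in shLincU and 0.91 in shCtrl, and its 2 probes differed by 0.067 and 0.052. Lama5 was at 4.80 in shLincU and 4.65 in shCtrl, a difference of 0.15. Lamb1 was at 2.16 in shLincU and 1.97 in shCtrl, and its 3 probes differed by 0.29, 0.20 and 0.087. Lamc1 was at 1.54 in shLincU and 1.65 in shCtrl, a difference of -0.11. The differences of these 4 genes spanned 0.30. The other 2 probes of Lamb1 were dim, at 1.78 and 1.37; with them included Lamb1 stood at 0.74, and with the positive and significant flag at 0.59, past 1.5-fold.

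Of genes with several measured probes, 5% had probes that differed from each other by over 1. Lamc1 was the only such member, counting probes well above background on both arrays. Its 4 probes stood at -0.69, 0.51, -0.14 and -0.11. The last 2 overlap almost fully at the 3′ end (chr1:155066156-155066215 and chr1:155066154-155066213, mm9) and sit in opposite parts of the array, 1 in the upper and 1 in the lower rows. They gave nearly the same value. Their intensities were 8841 and 9298 units in shLincU, against 14490 and 14932 units in shCtrl, before scaling for the brightness of each array. The probe at -0.69 was dim, at 33.5 units in shLincU and 80.5 units in shCtrl.

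Among the laminin genes of epithelia, Lama3, an α chain, was at -2.77 in shLincU and -2.08 in shCtrl. The difference was -0.68 with an error of 0.23, and this was the only laminin past 1.5-fold. With normexp background correction it was -0.23. Lamb3, a β chain of epithelial basement membranes, was well above background in shCtrl only, at least 1.24-fold lower in shLincU.

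The remaining laminins were mixed. Lamb2, the β chain of mature muscle and kidney basement membranes, was at -0.26 in shLincU and -0.49 in shCtrl, a difference of 0.23. Lama4, found in vessel walls, was at -3.84 in shLincU and -3.61 in shCtrl, a difference of -0.23 that is smaller than its error of 0.32. Lama2, the muscle α chain, was well above background in shCtrl only, too dim for a fold, and Lamc3 was well above background on neither array. Over the class, 4 of the 8 measured genes lay above 0 and 4 below, with a median of -0.023.

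Among the measured genes that fold, process and cross-link collagen, only lysyl oxidase was at least 1.5-fold apart. Adamts3, which was not measured on both arrays, had a bound past that size. Of 31 listed genes 27 were measured, with a median of -0.068. None was 2-fold higher and 1 was 2-fold lower, against 1.14% and 1.53% of all measured genes. Lox, which cross-links collagen and elastin outside the cell, was at -2.77 in shLincU and -0.62 in shCtrl, a difference of -2.15. P3h2, a prolyl 3-hydroxylase acting on type IV collagen, was at -3.73 in shLincU and -4.31 in shCtrl, a difference of 0.58. Creb3l1, a transcription factor for type I collagen, was at -0.024 in shLincU and 0.47 in shCtrl, a difference of -0.50. Adamts3, which removes the amino propeptide of procollagens, was well above background in shCtrl only and at least 3.25-fold lower in shLincU, in 1 spot beside others that differ between the arrays.

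Partners of laminin and type IV collagen in the basement membrane showed no 2-fold difference. Of 20 listed genes 15 were measured, 10 above 0 and 5 below, with a median of 0.11. Fbln2, a fibulin that binds laminin and nidogen, was at -0.12 in shLincU and 0.77 in shCtrl, a difference of -0.89. Pxdn, the peroxidase that cross-links type IV collagen, was at 2.57 in shLincU and 2.08 in shCtrl, a difference of 0.49. Tinagl1, a laminin-binding matrix protein, was at -2.53 in shLincU and -2.91 in shCtrl, a difference of 0.38.

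Receptors also held no 2-fold difference among the 14 of 18 genes measured, 9 above 0 and 5 below, with a median of 0.19; over the upper rows alone, with 4 genes, the median was -0.13. Itga1, the integrin α1 chain that binds collagens, was at -2.72 in shLincU and -3.52 in shCtrl, a difference of 0.80. Itgb1, its β partner and that of the main laminin receptors, was at 2.77 in shLincU and 2.30 in shCtrl, a difference of 0.47. Itgb4, the β chain of the hemidesmosome integrin that binds laminin-332, was at 1.59 in shLincU and 2.07 in shCtrl, a difference of -0.47. Ddr2, a receptor kinase for fibrillar collagen, was well above background in shCtrl only and at least 3.19-fold lower in shLincU; of its 2 probes, 1 lies in the lower rows beside other spots that differ between the arrays.

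Matrix proteases and their inhibitors held the widest difference of the lists. Of 21 genes 14 were measured, with a median of -0.16 and 1 gene 2-fold lower, against 1.53% of all measured genes. Mmp3, stromelysin 1, was at -3.84 in shLincU and -0.88 in shCtrl, a difference of -2.96 read in 1 spot of the lower rows. Mmp15, a membrane-bound protease, differed by -0.87 and Timp3, a protease inhibitor bound to the matrix, by -0.60. Another 4 proteases of the 21 genes were well above background in shCtrl only, against 4.53% of all genes on the array. The collagenase Mmp13 was at least 2.14-fold lower in shLincU and Mmp10 at least 2.33-fold. Plat, tissue plasminogen activator, and Ctsk, which cleaves the collagen helix, were at -4.337 and -4.281 in shLincU. These levels lie above the lowest level well above background there, -4.341. Their values are therefore plain differences and not bounds, 1.04-fold and 4.04-fold lower in shLincU.

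**Figure D4:**
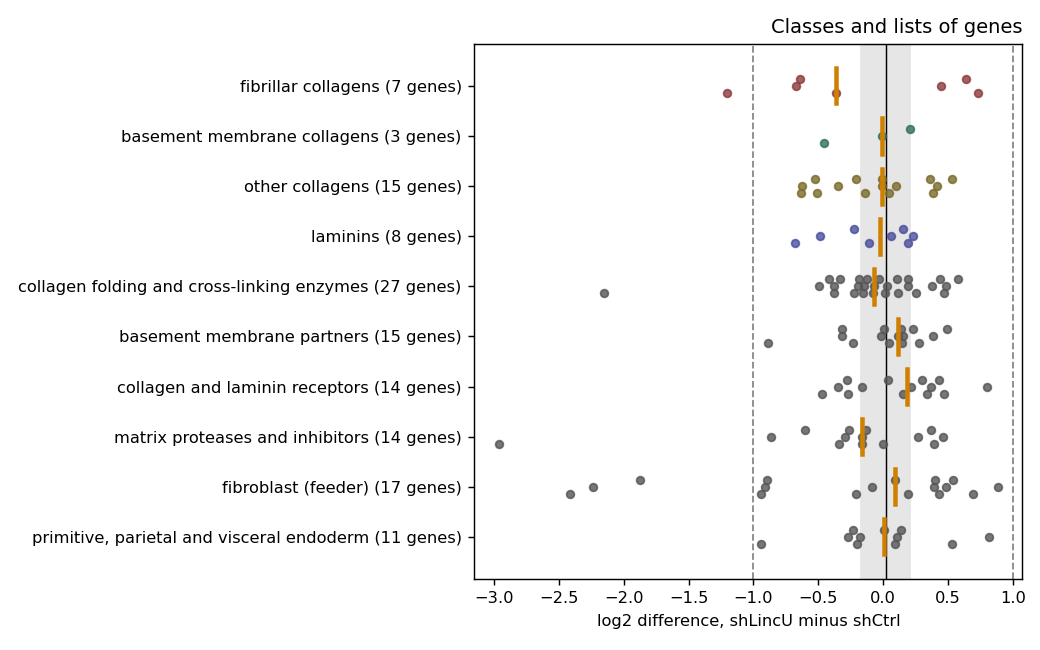
Points are the measured genes of each class or list by their log2 difference, shLincU minus shCtrl; orange bars are medians, the grey band is the interquartile range of all genes and dashed lines mark 2-fold. The medians lie between -0.37 and 0.19, and the points below -1 are Col1a2, Lox, Mmp3 and 3 feeder fibroblast markers.

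Fibroblasts are rich in type I, III and V collagen, Lox and Mmp3, and the cultures had been grown on feeders. Of 20 fibroblast markers 17 were measured, with a median of 0.091 and a mean of -0.32. None was 2-fold higher and 3 were 2-fold lower, against 1.14% and 1.53% of all measured genes. Dcn, a proteoglycan on collagen fibres, was at -3.27 in shLincU and -0.85 in shCtrl. The chemokine Ccl2 was at -0.60 in shLincU and 1.64 in shCtrl, and S100a4 was at -0.45 in shLincU and 1.42 in shCtrl. Ccl2 and S100a4 were each read in 1 spot of the lower rows and Dcn in 1 spot of the upper rows. None of these spots lay beside others that differ between the arrays. In the lower rows 4.11% of all spots were 2-fold apart, against 1.33% in the upper rows. Of the measured markers 9 lay above 0 and 8 below. Those above included Tagln at 0.88, Twist2 at 0.69, Twist1 at 0.54 and Cxcl12 at 0.49. Those below also included Thy1 at -0.94, Postn at -0.91 and Fbln5 at -0.89. At 1.5-fold 2 markers were higher in shLincU and 6 lower, against 4.78% and 4.84% of all measured genes. Among the collagens, Col1a2 and Col5a3 lay below 0 and Col1a1, Col3a1 and Col5a1 above. Lum and Fap, however, were well above background in shLincU only, at least 2.32-fold and 2.23-fold higher, each read in 1 spot of the lower rows beside other spots that differ between the arrays. The summed signal of the list was 69.5 times the array's 75th percentile in shLincU and 64.0 times in shCtrl. Its brightest genes weigh most in that sum: Tagln, at 4.91 in shLincU and 4.03 in shCtrl, and Vim, at 4.73 and 4.81. The sum therefore does not stand for the list as a whole. The part of fibroblasts in the collagen values was not tested.

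Other cell types that make these proteins gave the following values, whose part was likewise not tested. Of 17 endoderm markers 11 were measured, 6 above 0 and 5 below, with a median of 0.0023. Their summed signal was 5.37 in shLincU and 6.36 in shCtrl. Cited1, at 0.93 in shLincU and 1.20 in shCtrl, and Stra6, at 0.64 and 0.84, weigh most in that sum. Afp, Ttr and Apoa1 were well above background on neither array. Trophoblast markers (9 of 11 measured) had a median of 0.24, neuroectoderm markers (6 of 7) 0.12 and endothelial markers (5 of 7) -0.45, with Cdh5 and Tie1 well above background on neither array. Mesoderm markers (4 of 8) had a median of 0.63, and all 4 lay above 0. T, a primitive streak factor, was at 0.60 in shLincU and -0.50 in shCtrl. It was the only 1 of them 2-fold higher, against 1.14% of all measured genes. Mixl1 was well above background in shLincU only and at least 3.03-fold higher there, where 46.6% of all such genes had a bound of 2-fold or more. Meox1 was well above background in shCtrl only, too dim for a fold. All 12 markers of ES cells were measured, with a median of 0.0074 and a summed signal of 1004 in shLincU and 909 in shCtrl. The brightest of them, Dppa5a, at 9.42 in shLincU and 9.19 in shCtrl, weighs most in that sum. The pluripotency factor Pou5f1 was at 4.77 in shLincU and 4.80 in shCtrl.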

How the data were processed

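Total RNA was labelled with Cy3 and hybridised to 1 array per group, per the labels. The authors' scanner files give processed, mean and background intensity per spot from Agilent Feature Extraction, version 10.7.1.1 in the submitters' processing notes; the processed intensity was spatially detrended, per the file headers. Other deposited columns are flags of 0 or 1. The deposited value table holds log2 values with a median of 5.65 in each column; against the scanner values its slope was 1.00 over 56572 probes, so it runs in the direction of the signal. Its normalization and centring are not given in the sources used here.

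The main value was log2 processed intensity minus the array's 75th percentile over non-control probes, with outlier spots left out (138 in shLincU and 98 in shCtrl, none of a member) and spots of a probe averaged. The difference of a gene averaged the probes that were well above background in shLincU and in shCtrl. A gene seen on 1 array only got a bound: its level there against the higher of the lowest level well above background on the other array and the probe's own level. Where the probe's own level was the higher, as for Plat and Ctsk, the bound equals the plain difference. The scanner error was not taken off a bound. Of the 121 member probes, 85 were named by accession and 36 by symbol through a RefSeq table of GRCm38, used for names and promoters.

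The members and lists were chosen with earlier results of these data known. Named were members at least 1.5-fold apart, with a bound of at least 2-fold or with probes over 1 apart, the 3 smallest differences per class, and the laminin and type I, III, IV, V and VI collagen genes; of other lists, genes at least 2-fold apart or the 3 largest differences. Other genes were named after their values were seen. The values of 1 laminin gene, which the class counts and medians include, are not reported here. No test was possible with 1 array per group. The calculation was tested on simulated data.

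The alternatives were normexp with an offset of 50, quantile normalization, cyclic loess, median centring, 8 E1A spike-in probes, the deposited table, no filter, another detection flag, the brightest probe, the median over probes, outliers kept, the upper or lower rows, leaving out spots beside discordant ones, other sizes and the mean of a class. A spot lay beside discordant ones when at least 2 of its 14 neighbours were 2-fold apart in the same direction. Tools were R 4.3.3 with limma 3.58.1, and Python 3.11.15 with pandas 2.3.3, numpy 2.4.6 and scipy 1.17.1; figures were drawn with matplotlib 3.10.9.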

Additional observations from a re-analysis of the deposited data

How the results depend on the processing

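No paired analysis was possible because only 1 array was hybridised per group. E1A scaling gave medians of -0.90 for all members, -1.26 for fibrillar, -0.90 for basement membrane and -0.90 for other collagens and -0.92 for laminins, with 15 members 2-fold lower. With normexp the median was -0.12 for fibrillar and 0.18 for other collagens. The fibrillar median was 0.19 without a filter, -0.049 with the positive and significant flag, 0.038 in the upper rows and -0.15 as a mean; that of receptors was -0.13 in the upper rows. Without a filter 1 member (Col4a4) was 2-fold higher and 3 were lower, with the other flag 1 (Col4a4) was higher, and in the lower rows, where Col1a2 had no measured probe, 0 were lower. At 1.5-fold 2 were higher and 6 lower, and at 3-fold 0 were lower. The 8 members past 1.5-fold stayed past it with the same sign under quantile normalization, cyclic loess, median centring and the deposited table. Under normexp 7 of the 33 differences changed sign, none of them among these 8, of which 2 (Col1a2 at -1.03 and Col5a1 at 0.65) stayed past 1.5-fold. Without a filter 7 of the 8 had the same sign: Col5a3 was then 0.41 and Col1a2 -0.24, each averaged with dim probes. In the lower rows 4.11% of all spots were 2-fold apart, against 1.33% in the upper rows; 57 member probes lie in the lower and 64 in the upper rows. The cause was not tested. Signal over background limits the 22 genes without a difference.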
